A study of Mus musculus with 13 samples.

Results

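Genes of the actin cytoskeleton and of cell motility were followed across 6 leukocyte populations of the mouse spleen. The set held 42 genes chosen by name: actin monomers and monomer binding proteins (5 genes), nucleation and elongation factors (12), crosslinking and bundling proteins (6), severing, capping and turnover factors (7), linkers to the membrane and to adhesions (7), myosins (4) and the intermediate filament gene Vim. Each gene was read from the probe set with the highest mean among those annotated to that gene alone. Such a probe set was held by 39 of the 42 genes, and all 39 had a signal of at least 50 in every replicate of at least 1 population, as did 9380 of the 18195 genes with a probe set of their own. Of the other members, Arpc1b shares its probe sets with Gm5637, and no probe set was annotated to Actr2 or Arpc3, so these 3 were left out of the tests.

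The 13 arrays came from untreated wild-type C57BL/6 mice. Plasmacytoid dendritic cells (pDC), sorted as CD11c+ cells with high 120G8 staining, CD8α conventional dendritic cells (CD8α cDC) and CD11b conventional dendritic cells (CD11b cDC), both sorted as CD11c-high cells, had 2 arrays each, from pools of 10 to 15 mice. B lymphocytes had 3 arrays, from 3, 2 and 1 mice, and the labels call replicates 2 and 3 follicular. NK cells (NK1.1+ TCRβ-) had 2 arrays from pools of 6 to 10 mice, and CD8 T lymphocytes had 2 arrays from 1 mouse each. Age was labelled as 6 to 8 weeks for CD8α cDC replicate 1 and both CD8 T arrays, and as 6 weeks for B replicates 2 and 3. Values are MAS5 signals that the authors scaled to a target of 100 on every array. Signals below 20 were set to 20 for the tests, so a difference against a population at this floor is limited by it. RNA was pooled over the sorted cells, so fewer expressing cells and less RNA per cell cannot be told apart.

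The defining genes of the labels were present: all 9 measured pDC markers were at 50 or more on both pDC arrays, and the same held for 9 of 9 B, NK and T cell markers in B, NK and CD8 T cells. Of 9 cDC markers, which include genes of only 1 of the subsets, 5 reached 50 on both CD8α cDC arrays and 8 on both CD11b cDC arrays. On both pDC arrays 5 did so too, so this count did not separate CD8α cDC from pDC. The instrument records put all 6 dendritic cell arrays in 1 scanning period and on 1 chip lot, the B and NK arrays in a later period and the CD8 T arrays in the last. The scanning period and the population therefore cannot be told apart in dendritic cells against lymphocytes and in NK against CD8 T cells. Both NK arrays stood apart in the Gapdh control, whose 3′ probe set was 23.9 and 11.2 times as bright as its 5′ probe set, against 3.46 to 6.30 on the other 11 arrays. Xist was between 1539 and 4503 on the 6 dendritic cell arrays and 4272 on B replicate 2, and no more than 31.5 on the other 6, on which the highest Y-linked signal was 346 to 968. Both CD8 T arrays, labelled female, and B replicate 2, labelled male, thus went against their labelled sex. B replicate 1 had a summed signal of 1514 over 8 neutrophil markers, the highest of all arrays. Of 11 monocyte and macrophage markers, 9 reached 50 on both CD11b cDC arrays, against 4 in CD8α cDC and 4 in pDC. They summed to 9246 to 10873 in CD11b cDC, 3186 to 3604 in CD8α cDC and 3399 to 3814 in pDC. The part of these markers in values that were highest in CD11b cDC was not tested.

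Leukocytes move, engulf particles and form contacts by building and taking apart actin filaments beneath the plasma membrane. The Arp2/3 complex starts branched networks, formins and Ena/VASP proteins lengthen straight filaments, crosslinkers such as filamin, α-actinin and fascin set how filaments are bundled, cofilin and gelsolin sever them, and myosins pull on them. ERM proteins and talin tie the filaments to the membrane and to integrins. Dendritic cells are known for their veils and dendrites, which are actin protrusions, and fascin is a classical marker of mature dendritic cells.

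Nearly all members differed among the 6 populations: 38 of the 39 had an adjusted p below 0.05 in limma's F test, beside 82.8% of all genes tested. Coro1a, which encodes the leukocyte coronin, was the exception (adjusted p = 0.588), with population means between 5535 ± 1693 in pDC and 7386 ± 1041 in CD8α cDC (SD, n = 2 each). The distance between the highest and the lowest population mean had a median of 1.83 log2 units over the members and of 1.52 over all genes tested, and it ran up to 7.64 for Gsn. The roles, which held few genes each, differed in the median of this spread, with no test of the difference. It had a median of 1.05 for the monomer group and 1.51 for nucleation and elongation, and of 2.01 for crosslinkers, 2.09 for severing and capping, 2.19 for myosins and 4.12 for linkers. The highest mean lay in NK cells for 15 members and in CD11b cDC for 11, and the lowest lay in pDC for 13 and in CD8 T cells for 9.

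**Figure D1:**
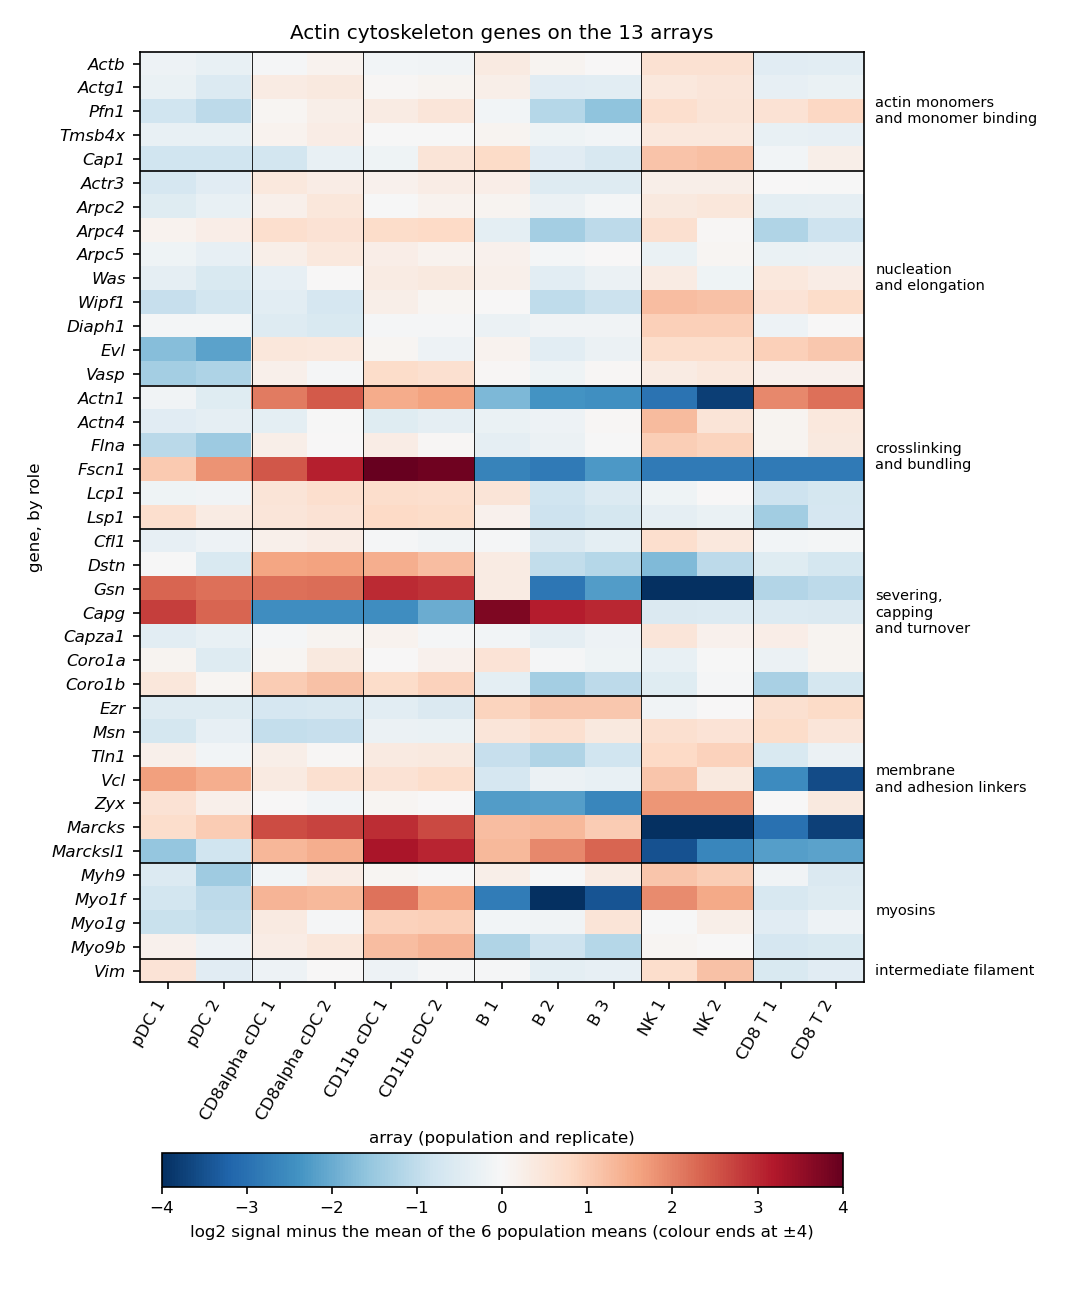
Heat map of the 39 genes (rows, by role) on the 13 arrays (columns). Colour is the log2 signal minus the mean of the 6 population means, ending at 4 log2 units either way; the abundant monomer and Arp2/3 genes are pale, while Fscn1, Gsn, Capg, Marcks, Marcksl1, Actn1 and Myo1f hold the strong colours.

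The 5 comparisons gave the members different profiles. In pDC against the mean of both cDC subsets, 21 members were called, 2 higher and 19 lower, with a median of −0.60 on the log2 scale. Over all genes 36.7% were called (17.7% higher, 19.1% lower) and the median was −0.00. Arrays of the 2 sides did not overlap for any of the 21, and 32.5% of all genes were called without overlap. In CD8α against CD11b cDC, 7 members were called, all lower in CD8α cDC, against 19.5% of all genes (8.96% higher, 10.6% lower). This count fell to 2 or 3 without CD8α cDC replicate 1 or 2, and to 1 or 3 without CD11b cDC replicate 1 or 2, while the share of all genes called was between 11.8% and 13%. In dendritic cells against lymphocytes, 25 members were called, 14 higher and 11 lower, a share close to the 63.6% of all genes (31.3% higher, 32.3% lower), and the median of 0.02 lay beside −0.02 for all genes. Arrays did not overlap for 6 of these 25, 4 higher and 2 lower, and 11.7% of all genes were called without overlap (6.01% higher, 5.74% lower). In B cells against the mean of NK and CD8 T cells, 18 members were called, 5 higher and 13 lower, beside 37.8% of all genes (17.7% higher, 20.1% lower). B replicates 2 and 3 were made from 50 ng of RNA and had actin 3′ to 5′ ratios of 2.05 and 2.64, against 1.42 for replicate 1, and their median member lay 0.41 and 0.28 log2 units below the mean over the populations, against 0.11 above it in replicate 1. Without replicate 1, 5 members were higher and 18 lower, and 45.0% of all genes were called; the part of RNA amount and quality was not tested. In NK against CD8 T cells, 19 members were called, 15 higher and 4 lower, with a median of 0.62, beside 38.1% of all genes (21.5% higher, 16.6% lower) and a median of 0.05.

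The actin and monomer genes were bright in every population. Actb, β-actin, averaged 10393 ± 356 in pDC, 12824 ± 1092 in CD8α cDC, 11343 ± 191 in CD11b cDC, 13917 ± 1753 in B, 18949 ± 193 in NK and 9124 ± 138 in CD8 T cells (SD, n = 2 each, 3 for B). It was called in 1 of the 5 comparisons, NK against CD8 T cells (log2 difference 1.05 ± 0.16 SE, adjusted p = 0.00058). This call was lost under quantile normalization (0.23, adjusted p = 0.214). The Actb values come from the 3′ probe set of the actin control. The middle and 5′ probe sets of that control gave 0.73 (adjusted p = 0.0451) and 0.29 (adjusted p = 0.562) here. A further probe set gave 1.00 (adjusted p = 0.00213) and a dim one −1.45 (adjusted p = 0.0267). The actin 3′ to 5′ ratios were 3.23 and 2.1 in NK and 1.61 and 1.46 in CD8 T cells, and their part was not tested. Among the dendritic cells, Actg1, Pfn1 and Tmsb4x were lower in pDC than in cDC, and Actb (−0.21, adjusted p = 0.265) and Cap1 were not called. Pfn1, profilin, which hands actin monomers to growing filaments, read 616 and 517 in pDC, against 1129 and 1240 in CD8α and 1324 and 1493 in CD11b cDC (−1.19 ± 0.32, adjusted p = 0.014). It was also lower in B cells, at 981, 480 and 347, against 1679 and 1515 in NK and 1576 and 1891 in CD8 T cells (−1.60 ± 0.29, adjusted p = 0.00116). The groups did not overlap in either comparison, and B replicate 1 was the highest of the B arrays.

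Of the 9 measured nucleation and elongation genes, 5 were lower in pDC than in cDC and none was higher. Over all genes 19.1% were lower and 17.7% higher. The largest of these 5 differences were in the Ena/VASP genes, whose products lengthen filaments at their growing ends. Evl read 273 and 204 in pDC, against 1216 and 1205 in CD8α and 940 and 784 in CD11b cDC (−2.11 ± 0.19, adjusted p = 6.39e-06). Vasp read 296 and 320 in pDC, against 867 and 722 in CD8α and 1266 and 1181 in CD11b cDC (−1.68 ± 0.14, adjusted p = 3.87e-06). For both genes the pDC arrays were the lowest of all 13. The Arp2/3 subunits Actr3 (−0.87), Arpc2 (−0.60) and Arpc5 (−0.51) were lower in pDC by smaller steps, and Arpc4 was not called. Another Actr3 probe set gave 0.09 (adjusted p = 0.878).

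The same group split in other ways among lymphocytes. Evl was highest in CD8 T cells, at 1728 and 1877. Its pooled dendritic cell mean was lower than that of lymphocytes (−1.03, adjusted p = 2.92e-05). Within that pool only the pDC arrays, at 273 and 204, lay below all lymphocyte arrays. The cDC arrays, at 784 to 1216, overlapped the B arrays at 986, 660 and 759. Evl was also lower in B cells than in NK and CD8 T cells (−1.03, adjusted p = 0.00056). Wipf1, which encodes the partner that binds and stabilizes the Wiskott-Aldrich syndrome protein, read 782, 382 and 425 in B cells, against 1818 and 1726 in NK and 1118 and 1292 in CD8 T cells (−1.54 ± 0.22, adjusted p = 0.000283). Was itself, the activator of the Arp2/3 complex in blood cells, passed the F test (adjusted p = 0.0399) but was called in none of the 5 comparisons. Diaph1, a formin, was higher in NK than in CD8 T cells (1.04, adjusted p = 0.000364), while 2 further probe sets of it gave −0.07 and −0.65, neither with a call.

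Among the 6 crosslinkers, Fscn1 separated dendritic cells from lymphocytes. It encodes fascin, which packs filaments into straight bundles. It read 290 and 495 in pDC, 796 and 1208 in CD8α cDC and 2515 and 2078 in CD11b cDC, against 22.0, 6.70 and 28.9 in B, 10.5 and 8.07 in NK and 1.31 and 0.844 in CD8 T cells. Every dendritic cell array was thus above every lymphocyte array, and 6 of the 7 lymphocyte arrays were at 22.0 or less. The difference on the floored scale was 5.49 ± 0.16 (adjusted p = 5.11e-10). Within the dendritic cells its order was pDC, CD8α cDC and CD11b cDC: it was lower in pDC than in cDC (−1.98 ± 0.25, adjusted p = 8.69e-05) and lower in CD8α than in CD11b cDC (−1.22 ± 0.29, adjusted p = 0.0117). The second of these calls was lost without CD8α cDC replicate 1 (−0.92, adjusted p = 0.111) or CD11b cDC replicate 1 (−1.08, adjusted p = 0.0998). It was also lost with the second highest probe set (−0.69, adjusted p = 0.162), without the floor (adjusted p = 0.234) and without the signal filter (adjusted p = 0.051). A dimmer Fscn1 probe set gave 1.04 for dendritic cells against lymphocytes (adjusted p = 0.000348).

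The bases before the annotated start of Fscn1 are shown because this gene had the largest difference between dendritic cells and lymphocytes. The stretch is the 100 bases upstream of the RefSeq start on the plus strand of GRCm38.p6, chr5:142960255-142960354, with TGACGTCA, the cyclic AMP response element, and TATAAA, the TATA box, in capitals.
Fscn1: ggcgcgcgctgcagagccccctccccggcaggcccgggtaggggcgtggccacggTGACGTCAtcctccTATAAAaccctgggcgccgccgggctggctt
The windows searched were the 250 bases before the start, on both strands, and RefSeq promoter rows matched 37 of the 42 members. TGACGTCA was found in 1 of the 37, which is Fscn1, and in 1.77% of 27025 genes. TATAAA was found in Fscn1, Myh9 and Vim, 8.11% of the 37, and in 14.3% of all genes. A match is a run of letters and says nothing on whether a factor binds there.

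Actn1, α-actinin 1, a crosslinker of contractile bundles, had a pattern of its own. It read 446 and 354 in pDC, 2085 and 2707 in CD8α cDC and 1363 and 1489 in CD11b cDC. In lymphocytes it read 140, 93.2 and 90.3 in B, 63.8 and 36.1 in NK and 1845 and 2247 in CD8 T cells. CD8 T cells thus lay among the cDC arrays, and NK cells lay 42.4-fold below CD8 T cells (−5.41 ± 0.30, adjusted p = 3.68e-07). Both other Actn1 probe sets ran the same way there (−1.71 and −2.86, both called). In pDC against cDC the difference was −2.21 ± 0.26 (adjusted p = 5.64e-05). For dendritic cells against lymphocytes the call (2.34) went with one of −0.57 on a dim probe set, so its direction depended on the probe set. Flna, filamin, which joins filaments at wide angles, read 377 and 287 in pDC, against 926 and 795 in CD8α and 971 and 818 in CD11b cDC (−1.41 ± 0.17, adjusted p = 7.75e-05). Lcp1, L-plastin, was lower in pDC too (−0.81, adjusted p = 0.0492), whereas Actn4 and Lsp1 were not called. Lsp1, a filament binding protein of leukocytes, ranged from 3754 to 5236 on the dendritic cell arrays, against 1140 to 3403 on the lymphocyte arrays (1.20 ± 0.18, adjusted p = 0.000197), with no overlap.

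**Figure D2:**
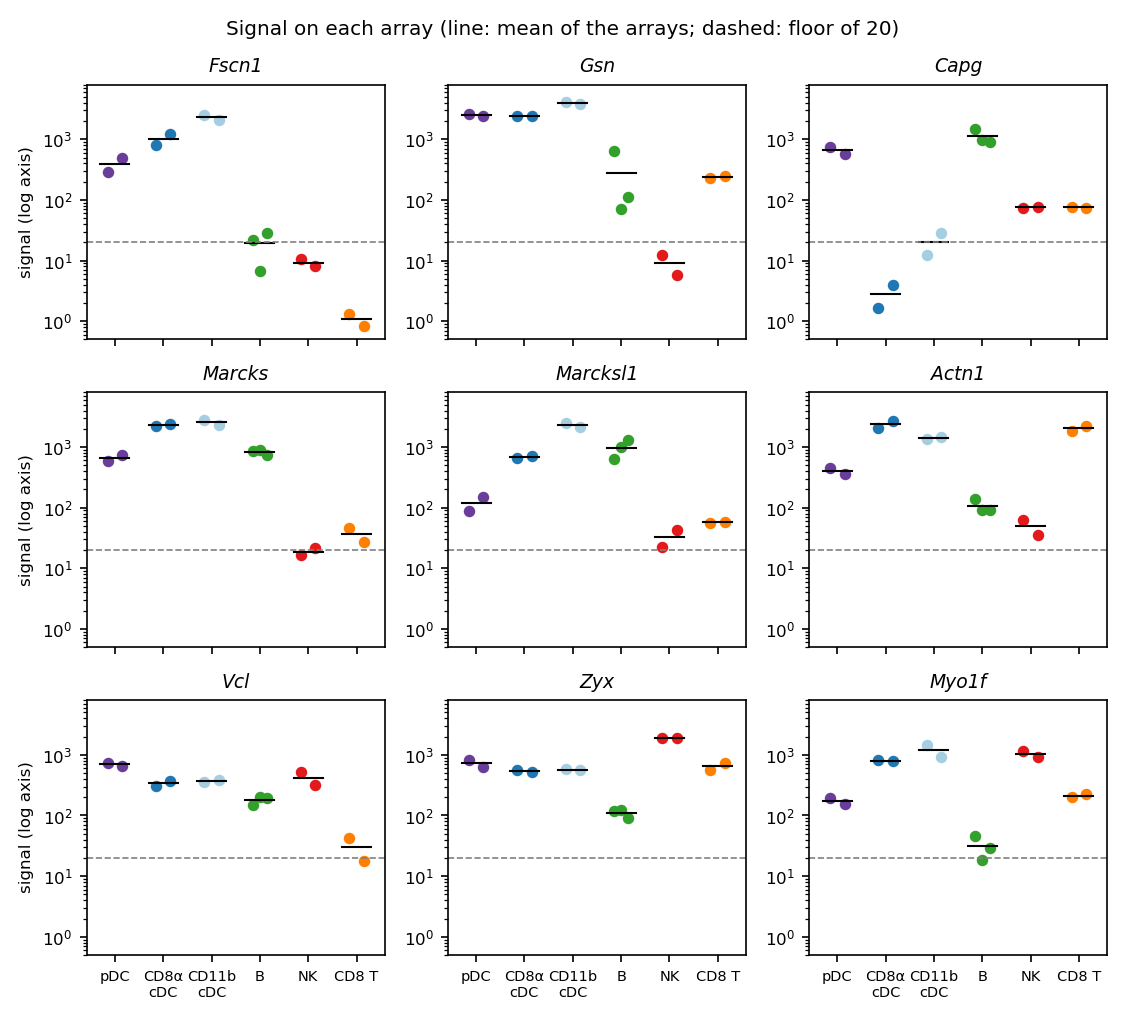
Signal on each array for 9 genes, on a log axis, with the populations along the horizontal axis; points are arrays, bars the means (n = 2, 3 for B) and the dashed line the floor of 20. Fscn1 and Gsn are high on all 6 dendritic cell arrays, Capg is high in pDC and B, and Actn1 is high in cDC and CD8 T.

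Among the severing and capping genes, Gsn and Capg had the largest differences. Gsn, gelsolin, which cuts filaments and caps their ends, read 2636 and 2378 in pDC, 2379 and 2451 in CD8α cDC and 4109 and 3874 in CD11b cDC. It read 648, 69.8 and 111 in B, 12.5 and 5.84 in NK and 230 and 250 in CD8 T cells. Dendritic cells lay above every lymphocyte array (4.95 ± 0.42, adjusted p = 2.20e-06), and all 4 other Gsn probe sets gave the same direction (1.18 to 4.68, all called). NK cells were lower than CD8 T cells (−3.58 ± 0.75, adjusted p = 0.00377), a value set by the floor on the NK side. The spread among the B arrays was wide, with replicate 1 highest, and B replicate 1 also had the highest neutrophil marker sum, whose part in this value was not tested. Gsn was not called between the dendritic cell subsets.

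Capg, a relative of gelsolin that caps filament ends without cutting, divided the dendritic cells. It read 760 and 561 in pDC, against 1.64 and 3.89 in CD8α and 12.5 and 28.0 in CD11b cDC (4.91 ± 0.23, adjusted p = 3.94e-08), so that 3 of the 4 cDC arrays were below the floor. Among lymphocytes it read 1499, 983 and 896 in B, against 74.6 and 76.6 in NK and 76.2 and 74.5 in CD8 T cells (3.86 ± 0.20, adjusted p = 6.98e-08). Its pDC and B arrays were thus the 5 highest. A second, dim Capg probe set ran the same way but was not called in either comparison (1.04 and 1.17, adjusted p = 0.153 and 0.0706). Of 9 B cell markers, 1 reached 50 on both pDC arrays, Cd79b at 479 and 344, and Blk was at 55.0 and 29.7. The 9 summed to between 469 and 604 on the pDC arrays, against 19943 to 33748 on the B arrays, with Cd79a at 1.37 and 10.8 and Ebf1 at 8.63 and 5.46 in pDC; their part in the Capg level was not tested. Dstn, destrin, a relative of cofilin, read 261 and 175 in pDC, against 796 and 814 in CD8α and 725 and 628 in CD11b cDC (−1.79 ± 0.37, adjusted p = 0.00302). Cfl1, cofilin, was not called among the dendritic cells on its brightest probe set (−0.35 in pDC against cDC) but was lower in pDC on another (−1.25, adjusted p = 0.0146), which was also higher in dendritic cells than in lymphocytes (0.89, adjusted p = 0.00471, against −0.07 on the brightest). On the brightest probe set Cfl1 was lower in B than in NK and CD8 T cells (−0.57, adjusted p = 0.0109). Coro1b, a coronin, ranged from 1201 to 2552 on the dendritic cell arrays, against 449 to 1108 on the lymphocyte arrays (1.46 ± 0.18, adjusted p = 3.19e-05). Capza1, a subunit of capping protein, moved least of the called genes in this group (−0.47 in B against NK and CD8 T cells, adjusted p = 0.0192).

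The linkers had the widest spread. Marcks and Marcksl1 encode related substrates of protein kinase C that hold actin at the membrane. Marcks read 596 and 734 in pDC, 2213 and 2395 in CD8α cDC and 2828 and 2283 in CD11b cDC. It read 865, 906 and 734 in B, 16.6 and 21.3 in NK and 46.3 and 27.6 in CD8 T cells. The B arrays thus lay at or above the pDC arrays, and the NK and CD8 T arrays were near the floor. The difference between B and the other lymphocytes was 4.94 ± 0.19 (adjusted p = 6.54e-09), and that between pDC and cDC was −1.87 ± 0.21 (adjusted p = 4.00e-05). All 5 further Marcks probe sets that reached 50 in every replicate of a population gave the direction of both comparisons. Marcksl1 read 88.9 and 148 in pDC, against 650 and 711 in CD8α and 2472 and 2129 in CD11b cDC (−3.44 ± 0.32, adjusted p = 9.09e-06), the largest fall in pDC among the members. It was lower in CD8α than in CD11b cDC (−1.76 ± 0.37, adjusted p = 0.00649), a call lost without CD8α cDC replicate 1 (adjusted p = 0.0527) or CD11b cDC replicate 1 (adjusted p = 0.0625). In B cells it read 634, 983 and 1299, against 22.9 and 42.5 in NK and 55.9 and 58.2 in CD8 T cells (4.47 ± 0.28, adjusted p = 3.74e-07). Of the 9 B cell markers, 4 reached 50 on both CD11b cDC arrays: Cd22 (2180 and 2035), Cd79b (181 and 222), Ms4a1 (162 and 122) and Blk (110 and 97.2), while Cd79a was at 1.18 and 2.58; their part in the Marcksl1 level was not tested.

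The integrin linkers took other courses. Vcl, vinculin, which couples talin to actin, read 741 and 647 in pDC, against 308 and 369 in CD8α and 355 and 390 in CD11b cDC (0.97 ± 0.29, adjusted p = 0.0234); this call was lost when either pDC array was left out (0.87, adjusted p = 0.146, and 1.06, adjusted p = 0.0906), and also without CD8α cDC replicate 1 or either CD11b cDC array. Of 10 stroma and endothelium markers, 3 reached 50 on both pDC arrays, Kdr (854 and 1415), Cdh5 (151 and 217) and Pecam1 (71.1 and 53.3), and the 10 summed to between 1135 and 1760 there, against at most 267 on the other arrays. Of 7 megakaryocyte and platelet markers, 1 did, Itgb3 at 545 and 675, with sums of 622 to 736 in pDC and at most 496 elsewhere, and Pf4, Ppbp and Gp9 were below 20 in pDC. The part of either list in the Vcl level was not tested. In NK cells Vcl read 512 and 313, against 41.7 and 17.8 in CD8 T cells (3.79 ± 0.34, adjusted p = 1.19e-05). Zyx, zyxin, an adhesion protein that binds VASP, was lowest in B cells at 119, 121 and 90.8, against 1901 and 1909 in NK and 561 and 723 in CD8 T cells (−3.33 ± 0.16, adjusted p = 3.18e-08). Tln1, talin, followed with −1.19 (adjusted p = 0.000118). Ezr, ezrin, ranged from 672 to 787 on the dendritic cell arrays, against 957 to 2251 on the lymphocyte arrays (−1.11 ± 0.09, adjusted p = 9.97e-07), and Msn, moesin, from 1156 to 1904, against 2959 to 3742 (−1.14 ± 0.10, adjusted p = 2.67e-06). Neither overlapped. The Msn call was lost with its second highest probe set (−0.54, adjusted p = 0.0502). Ezr was higher in B cells than in NK and CD8 T cells on this probe set (0.69, adjusted p = 0.000839) and lower on another (−1.23, adjusted p = 0.0234).

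Vcl, Actg1 and Arpc4 were the 3 of 37 members (8.11%) with a CArG box, the motif read by serum response factor, in the 250 bases before the start, beside 1.62% of 27025 genes. The stretches below are from RefSeq on GRCm38.p6, 5′ to 3′ on the strand of the gene, with the motif in capitals. They lie at chr14:20929148-20929204 (plus strand), chr11:120348552-120348611 (minus strand) and chr6:113377863-113377896 (plus strand).
Vcl: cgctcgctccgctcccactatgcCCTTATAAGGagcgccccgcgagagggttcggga
Actg1: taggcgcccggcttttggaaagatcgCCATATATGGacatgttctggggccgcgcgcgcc
Arpc4: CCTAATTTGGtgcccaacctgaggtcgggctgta
In pDC against cDC, Vcl was higher (0.97), Actg1 lower (−0.62, adjusted p = 0.0264) and Arpc4 not called, and in NK against CD8 T cells all 3 were higher (3.79, 0.76 and 1.37, adjusted p = 1.19e-05, 0.0203 and 0.0047), Arpc4 with another probe set at −0.30. GGGCGG, the GC box, was found before 24 of the 37 members (64.9%) and before 35.4% of all genes, with no test of the difference.

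**Figure D3:**
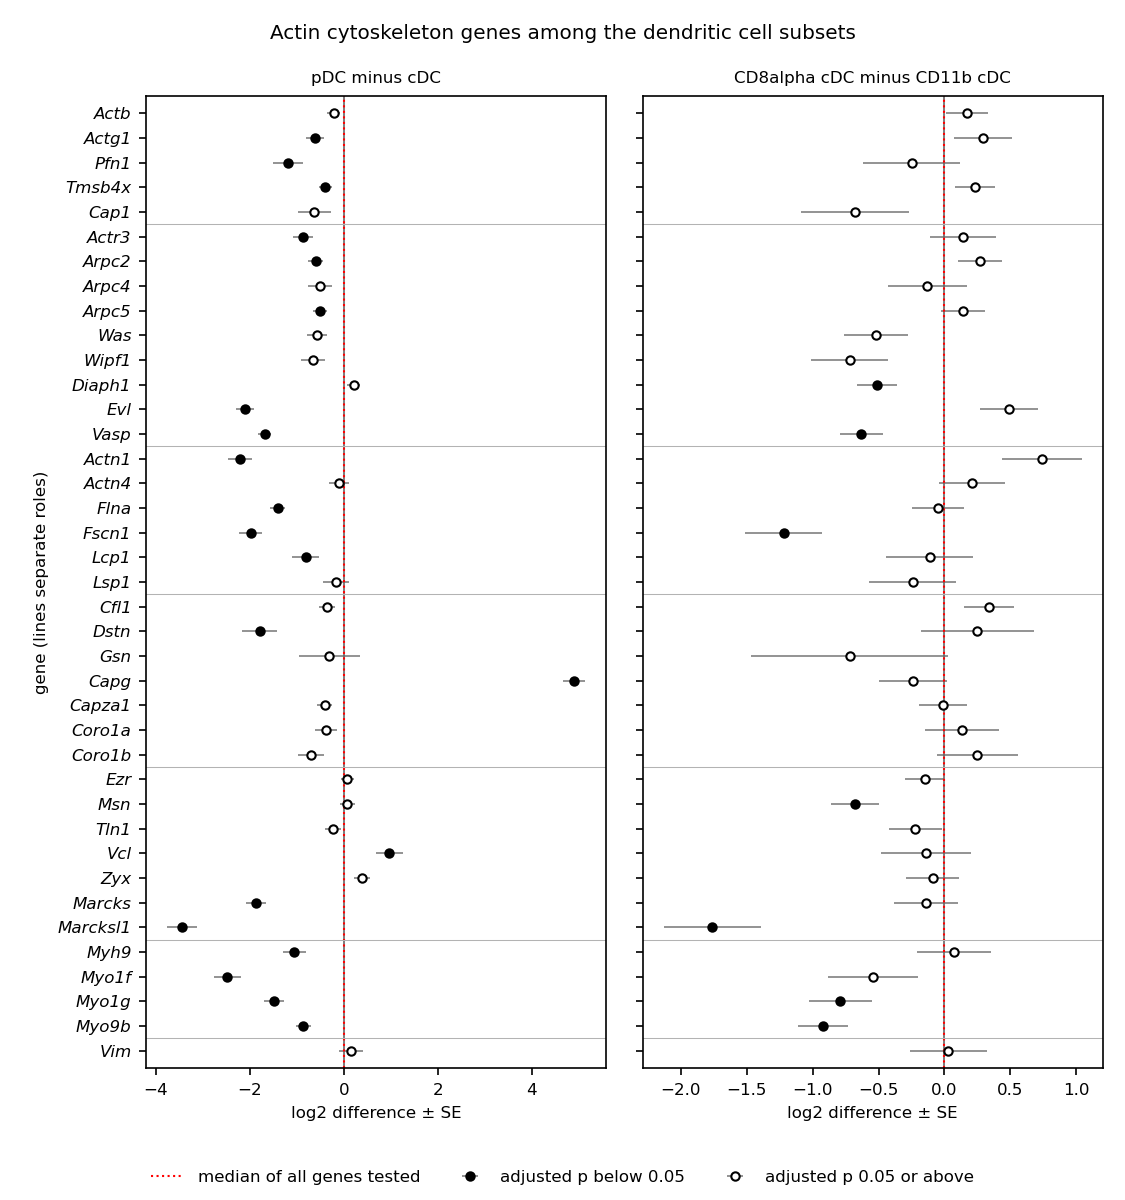
Log2 difference ± SE of each gene in pDC minus cDC (left) and CD8α minus CD11b cDC (right), genes down the page by role; filled points passed an adjusted p of 0.05 and the dotted line is the median of all genes tested. On the left 19 filled points lie below 0 and those of Capg and Vcl above it, and on the right all 7 lie below 0.

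All 4 myosins were lower in pDC than in cDC, beside 19.1% of all genes lower and 17.7% higher. Myo1f, a single-headed myosin that binds membranes, read 193 and 155 in pDC, against 821 and 780 in CD8α and 1447 and 934 in CD11b cDC (−2.48 ± 0.29, adjusted p = 6.10e-05). Myo1g, a related myosin of blood cells, gave −1.48 ± 0.21 (adjusted p = 0.000212), with 590 and 562 in pDC, against 1409 and 1062 in CD8α and 2100 and 2131 in CD11b cDC. Myh9, the heavy chain of non-muscle myosin II, gave −1.05 ± 0.24 (adjusted p = 0.00595), with 2746 and 1489 in pDC, against 3721 and 4931 in CD8α and 4200 and 3962 in CD11b cDC. Myo9b gave −0.86 ± 0.16 (adjusted p = 0.00159). Myo9b and Myo1g were also lower in CD8α than in CD11b cDC (−0.92, adjusted p = 0.00508, and −0.79, adjusted p = 0.0419), but the Myo1g call was lost when any of 10 single arrays was left out, among them the 4 cDC arrays. With its second highest probe set, Myo9b lost the call between the cDC subsets (−1.21, adjusted p = 0.168). In B cells Myo1f was near the floor at 45.5, 18.4 and 29.4, against 1174 and 914 in NK and 203 and 222 in CD8 T cells (−3.97 ± 0.26, adjusted p = 4.99e-07). The 3′ to 5′ ratios of the actin control were 1.48 and 1.79 on the pDC arrays, against 1.32 to 1.38 in cDC. Leaving out pDC replicate 2, made from 89 ng of RNA, reduced the members called between pDC and cDC to 13 and the share of all genes called to 25.6%, and leaving out replicate 1 reduced them to 15 and 29.0%; the part of RNA quality was not tested.

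Vim, the intermediate filament of mesenchymal cells and leukocytes, read 3339 and 1688 in pDC, against 1975 and 2328 in CD8α and 1992 and 2205 in CD11b cDC, so that the groups overlapped (0.16 ± 0.25, adjusted p = 0.662). Both other Vim probe sets gave a call here (0.76 and 0.72, adjusted p = 0.00572 and 0.0166). In NK cells it read 3764 and 5213, against 1511 and 1663 in CD8 T cells (1.48 ± 0.29, adjusted p = 0.00265). This call was lost with the second highest probe set (0.51, adjusted p = 0.0676) and with a term for the set of sample names (1.19, adjusted p = 0.067).

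**Figure D4:**
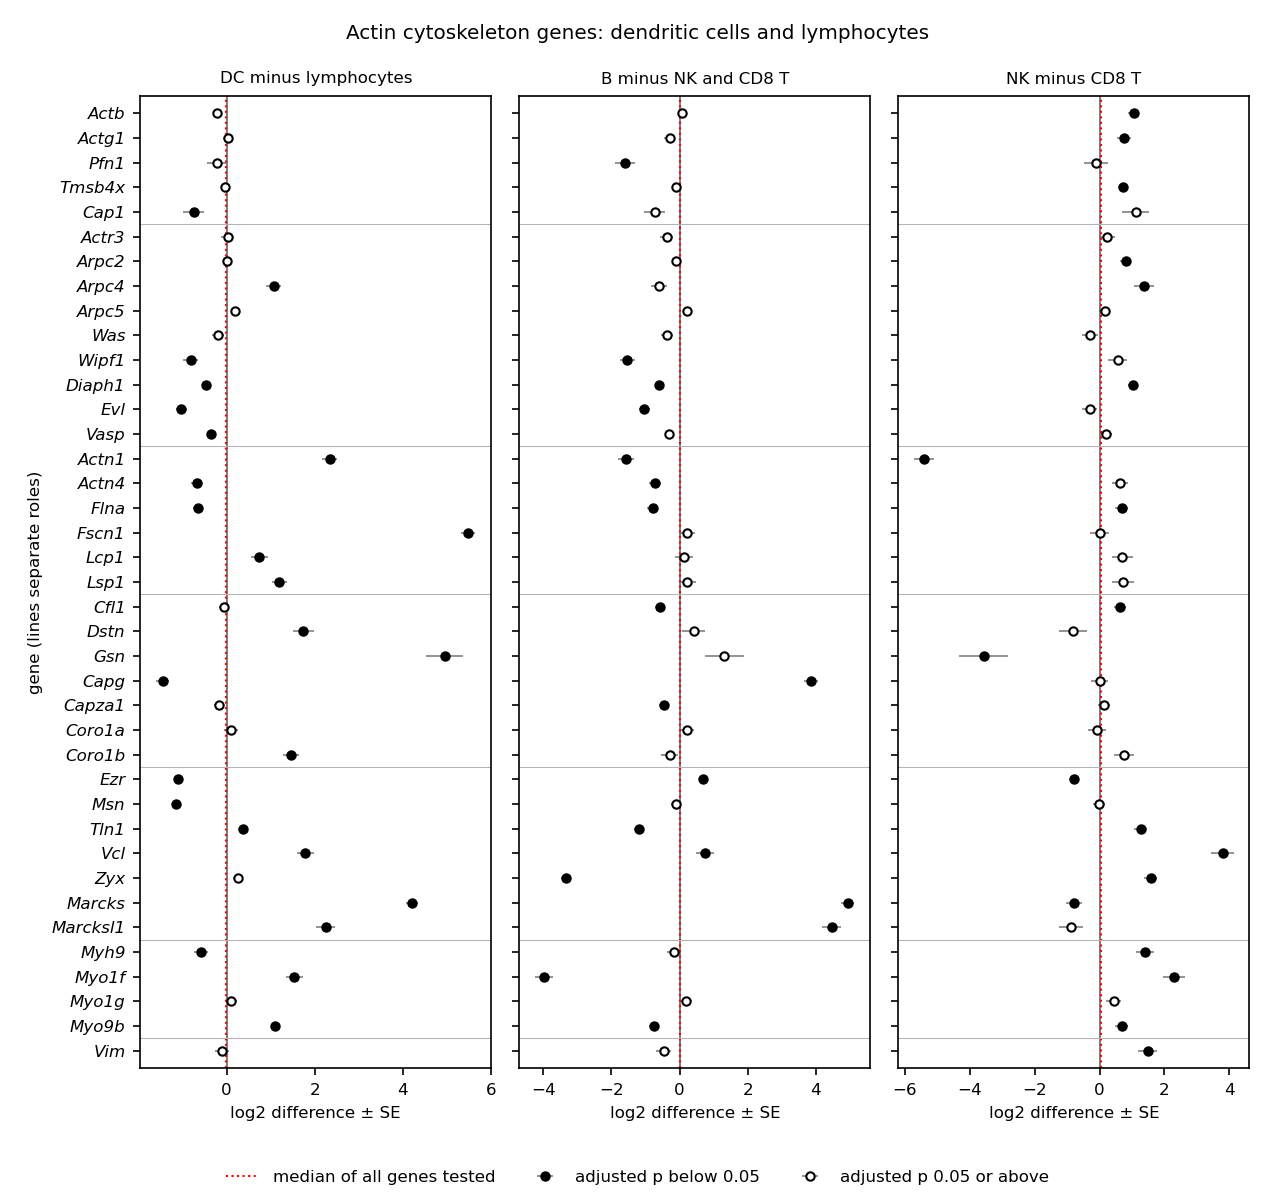
Log2 difference ± SE of each gene for DC minus lymphocytes, B minus NK and CD8 T, and NK minus CD8 T, with symbols as in the plot of the dendritic cell subsets. The first panel is led by Fscn1 (5.49) and Gsn (4.95), the second by Marcks (4.94) and Myo1f (−3.97), and the third by Vcl (3.79) and Actn1 (−5.41).

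The rise of the set in NK over CD8 T cells depended on the scaling, on the probe set and on a term for the set of sample names. With that term 9 members were higher and 4 lower, beside 17% and 15.5% of all genes, and the median was 0.04. Sample names began with MD on both NK arrays and with PK on both CD8 T arrays. Only B cells held both, so the term rests on the B arrays. The split of 15 higher and 4 lower became 9 higher and 5 lower under quantile normalization and 9 and 4 under invariant rank normalization. It became 5 and 6 of 37 genes with the second highest probe set of each gene. Members with a single probe set kept it in that last setting, and 28 members had several. For the 15 called members with a further probe set, 33 such differences were measured, of which 20 kept the direction and 13, in 8 genes, did not. Actb (−1.45, adjusted p = 0.0267) and Cfl1 (−1.38, adjusted p = 0.0179) were called in the opposite direction on another probe set. In pDC against cDC, 24 of 25 such differences kept the direction. The high 3′ to 5′ ratios of both NK arrays stand beside this; their part was not tested. Without NK replicate 1, 12 members and 28.6% of all genes were called. Actn1, Gsn and Myo1f kept their direction on every probe set that passed the signal filter. The Myo1f call (2.29, adjusted p = 0.000483) was lost without NK replicate 1 (1.69, adjusted p = 0.0707). Vcl had 2 probe sets of its own, of which only 1 passed the signal filter.

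**Figure D5:**
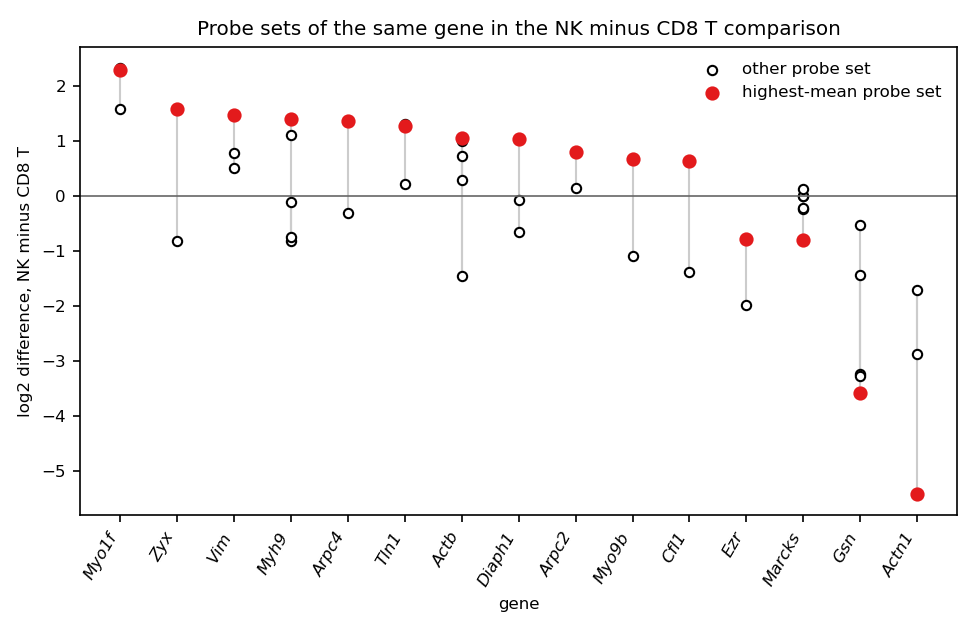
Log2 difference in NK minus CD8 T for the 15 called genes with more than 1 probe set that passed the signal filter. The highest-mean probe set is filled. For 8 genes, among them Zyx, Myh9, Actb and Cfl1, at least 1 other probe set lies on the other side of 0.

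A wider list of actin regulators, of which 113 genes were tested, was read in the same fits. In pDC against cDC, 24 were higher and 35 lower, beside 17.7% and 19.1% of all genes. Its actin binding proteins were mostly lower (19 of 36, with 7 higher and a median of −0.60). Eps8, which caps and bundles filaments, read 28.0 and 55.3 in pDC, against 394 and 659 in CD8α and 453 and 542 in CD11b cDC (−3.68, adjusted p = 2.36e-06). Aif1, a crosslinker of macrophages, gave −3.47 (adjusted p = 2.52e-07). It read 77.3 and 46.8 in pDC, against 1738 and 2002 in CD8α but only 203 and 283 in CD11b cDC. Ablim1, which binds filaments through LIM domains, ran the other way at 301 and 373 in pDC, against 0.836 and 1.93 in CD8α and 17.9 and 14.3 in CD11b cDC (4.07, adjusted p = 4.90e-09). Of the 11 other myosin genes, 5 were higher in pDC and 1 was lower, and their median was −0.18. Those higher included Myo5a, a vesicle transport motor, at 777 and 854 in pDC, against 169 and 136 in CD8α and 432 and 307 in CD11b cDC (1.79, adjusted p = 3.82e-05), and Myh10, a second non-muscle heavy chain (2.31, adjusted p = 1.14e-07).

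Other comparisons of the wider list added genes with sharp patterns. Fmnl2, a formin, ranged from 212 to 2066 on the dendritic cell arrays, against 1.07 to 28.3 on the lymphocyte arrays (5.42, adjusted p = 2.08e-11). It read 1966 and 2066 in CD8α, against 212 and 215 in CD11b cDC (3.24, adjusted p = 1.19e-07). Dbn1, drebrin, a filament binding protein, was at 468 and 322 in CD8α cDC, against 24.3 and 15.8 in CD11b cDC (4.14, adjusted p = 8.13e-08), and no other array exceeded 24.3. Over the list, 16 genes were higher and 16 lower in CD8α than in CD11b cDC, beside 8.96% and 10.6% of all genes. In B cells 16 were higher and 36 lower than in NK and CD8 T cells, beside 17.7% and 20.1% of all genes. Swap70, an actin binding signalling protein, read 2485, 1720 and 1727 in B, against 52.7 and 62.4 in NK and 20.3 and 12.1 in CD8 T cells (5.84, adjusted p = 8.18e-10). Iqgap2, an actin binding scaffold protein, read 2.62, 24.4 and 28.1 in B, against 1092 and 980 in NK and 434 and 365 in CD8 T cells (−4.75, adjusted p = 1.32e-09).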

How the data were processed

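The labels describe RNA amplified in 2 rounds and hybridized to Affymetrix Mouse Genome 430 2.0 arrays. The deposited values are linear intensity signals, which the authors obtained with MAS5 at a target of 100 for all arrays; version and detection calls are not given in the sources used here. Of 45101 probe sets, 34958 were annotated to 1 gene by the platform table, 932 to several and 9211 to none; 34754 were matched to RefSeq (GRCm38.p6).

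A gene was kept where every replicate of 1 or more populations reached 50. Values were floored at 20 and log2 transformed. One limma 3.58.1 model (R 4.3.3) held a mean for each of the 6 populations, left 7 residual degrees of freedom, and yielded the F test and 5 comparisons. Tests were two-sided, with Benjamini-Hochberg adjustment over 9380 genes and a threshold of 0.05; every adjusted p of a gene is from limma. Values of further probe sets come from the same model fitted to all probe sets that passed. With 2 or 3 arrays per population, precision is limited by their number. The script was tested on simulated data. Replicates are independent samples per the labels.

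Members and lists were chosen with earlier results of these data known. Full statistics were given to up to 4 members with the largest fold each way among called genes with non-overlapping arrays, and to Actb, Coro1a, Fscn1 and Vim; other values were added by role. Alternatives changed the scaling, floor, filter, probe set, variance model, batch terms and arrays.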

Additional observations from a re-analysis of the deposited data

How the results depend on the processing

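Of 34 named differences, 18 kept their direction and their call under every alternative run (13 arrays left out in turn and 18 others), 15 lost the call under at least 1, and 2 reversed under at least 1 (Ezr in B cells did both), each with the second highest probe set: Ezr in B against NK and CD8 T cells (−1.23) and Zyx in NK against CD8 T cells (−0.82). With 1 array left out in turn, members called ran from 33 to 38 in the F test, 24 to 26 for dendritic cells against lymphocytes, 13 to 26 for pDC against cDC, 1 to 9 for CD8α against CD11b cDC, 16 to 23 for B against NK and CD8 T cells, and 12 to 26 for NK against CD8 T cells. The lowest values came without pDC replicate 2 (13), without NK replicate 1 (12), and, for CD8α against CD11b cDC, without CD8α cDC replicate 1 (2) or 2 (3) or CD11b cDC replicate 1 (1) or 2 (3). The CD8α against CD11b cDC count was 4 with equal array medians, 4 with the second highest probe set and 11 with dendritic cell arrays alone; the NK against CD8 T count was 11 with the second highest probe set. Other counts stayed within 1.5 times the reported one. With the second highest probe set, genes that had only 1 kept it, so that setting could not change their log2 difference. Without both NK arrays, dendritic cells against the other lymphocytes gave 15 higher and 6 lower, and B against CD8 T cells gave 5 higher and 7 lower; within the second scanning period B against NK cells gave 6 higher and 15 lower; dendritic cells against lymphocytes gave 13 higher and 15 lower over the arrays named MD. The fits within the dendritic cells and within the second scanning period were chosen after seeing the data. Same-numbered replicates correlated between −0.199 and 0.184, and they were not treated as pairs. Numbers need not follow the sorting experiment, so this check could not show whether arrays of different populations shared an experiment. With the replicate block, 25 members were called for dendritic cells against lymphocytes, 19 for pDC against cDC and 6 for CD8α against CD11b cDC. It gave 16 for B against NK and CD8 T cells and 20 for NK against CD8 T cells. The floor replaced 49.1 to 58.3% of all probe sets per array, which limits folds of dim genes.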

Other observations

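Arpc1b, a subunit of the Arp2/3 complex, could be read only from probe sets annotated to Gm5637 and Arpc1b together, so it entered no comparison. On the brighter of the 2, the signal was 2766 and 2095 in pDC, 4390 and 4545 in CD8α cDC, 3977 and 4394 in CD11b cDC, 2628, 2375 and 2717 in B, 1957 and 2984 in NK and 1621 and 2475 in CD8 T cells. The 4 cDC arrays were the highest of the 13.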
